A study of Mus musculus with 18 samples.

Results

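Most TRIM proteins are ubiquitin ligases with a shared front end, a RING domain followed by B-box zinc fingers and a coiled coil. The C-terminal domains of TRIM proteins set most of what they bind. Many members with a PRY-SPRY domain at that end are made in response to interferon and act against viruses, whereas members with a PHD finger and a bromodomain act on chromatin in the nucleus, and others bind microtubules, RNA or membranes. The genes described here are those whose mouse symbol is Trim followed by digits, with a row in the deposited CPM table (counts scaled to a common library size). They number 42 of the 15386 rows of that table. Of the 68 Trim symbols in the name table, 67 were in the count table, and 25 of those had no CPM row because their summed count was too low. The test across all genes was run on 14309 genes and covered 40 of the 42. Trim15 and Trim71 were measured and too low to test.

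RNA was sequenced from MPC3, a mouse prostate cancer cell line, in 18 libraries that form 3 groups of 6. The control libraries carry the treatment label Control and the word plko in their titles, and what the control vector encoded is not given in the sources used here. The other groups each carry a short hairpin RNA that lowers the messenger RNA of Rnf185, a ubiquitin ligase of the endoplasmic reticulum; the hairpins are named shRNF185.1 and shRNF185.3, and both groups carry the treatment label RNF185 KD. Replicates 1 and 2 of every group are labelled batch 1, replicates 3 and 4 batch 2, and replicates 5 and 6 batch 3. The labels do not say whether the libraries came from separate cultures, so the p-values measure the spread between these libraries, which may be technical.

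Totals ranged from 22027395 to 43379662 counts per library. Rnf185 itself was at 32.7 to 38.6 CPM of the library total in control, at 5.15 to 6.98 with shRNF185.1 and at 5.18 to 6.86 with shRNF185.3, so the hairpin libraries did not overlap the controls (log2 fold change -2.63 with each hairpin; edgeR adjusted p = 9.3e-15 and 1.91e-14). Markers of the labelled cell type were present in part. The keratin genes Krt8 and Krt18 were measured in every library. Epcam had at most 7 counts in a library, and Pbsn was at 0. Of 4 epithelial markers tested, 3 fell with each hairpin: Cdh1, Krt8 and Krt18, with Cdh1 lower by 1.91 and 2.13 on the log2 scale. Of 2 basal epithelial markers tested, 1 rose and 1 fell with shRNF185.1, and 1 rose with shRNF185.3. Of 4 fibroblast markers tested, 1 rose and 1 fell with shRNF185.1 and 2 rose with shRNF185.3: Col1a1 rose by 1.29 and 2.19, Dcn fell by 2.11 with shRNF185.1 and had -0.50 with shRNF185.3, and Pdgfra rose by 0.46 with shRNF185.3. Of all genes, 28.9% were called with shRNF185.1 and 27.3% with shRNF185.3, at an adjusted p under 0.05. In bulk RNA, fewer cells of a type and less RNA per cell cannot be told apart. Immune cell markers were near 0: 6 markers summed to at most 5.11 CPM of the library total, Cd3e was at 0, and Ptprc had at most 3 counts in a library.

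Control cells held Trim genes over a wide range of levels. Levels of different genes were compared as CPM per kilobase of annotated exon. Trim28, which encodes the corepressor that KRAB zinc-finger proteins recruit to chromatin, led with 112 ± 9.93 CPM per kb (SD, n = 6). Its gap to the next gene was larger than both their SDs. Trim59, which encodes a membrane-anchored member, Trim8, a regulator of cytokine signalling, and Trim35, a PRY-SPRY member, followed with 38.9 ± 6.51, 35.2 ± 3.42 and 31.9 ± 1.20 CPM per kb, and neighbours among these 3 did not differ beyond their spread. Trim47 came next with 22.8 ± 2.79 and Trim44 with 21.9 ± 1.59, again with no difference beyond the spread. The lowest were Trim34b at 0.137 ± 0.0637, Trim5 at 0.0820 ± 0.0248 and Trim71, an RNA-binding member of stem cells, at 0.0171 ± 0.00392 CPM per kb.

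**Figure D1:**
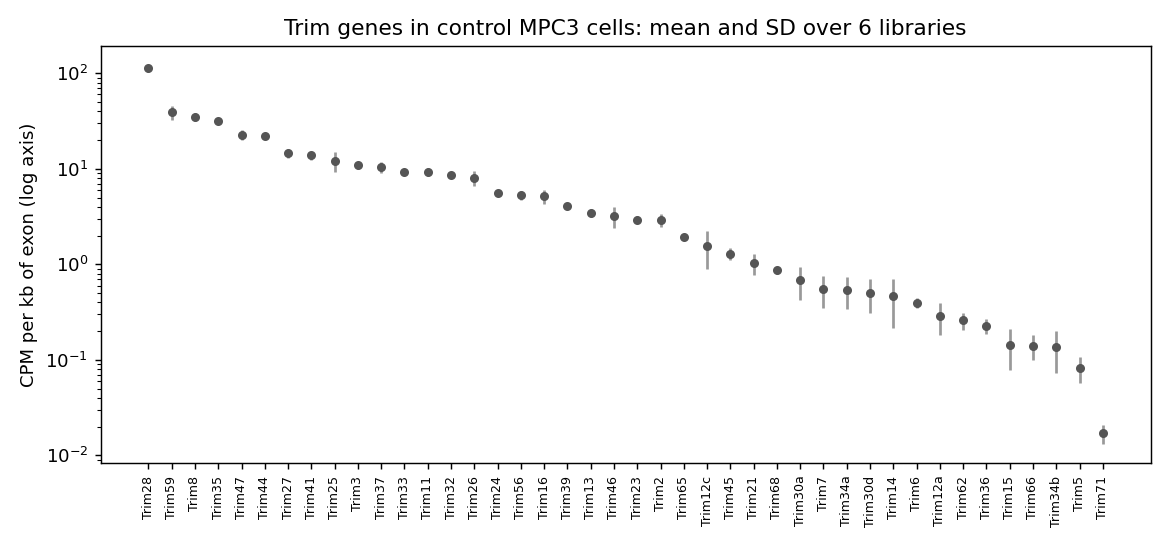
Level of each of the 42 Trim genes in control MPC3 cells, as CPM per kilobase of exon on a log axis; points are means and bars are SDs over 6 libraries. Trim28 stands highest at 112 and Trim71 lowest at 0.0171.

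Control levels of the antiviral genes were low per kilobase: 1.55 for Trim12c, 1.03 for Trim21, 0.681 for Trim30a, 0.536 for Trim34a, 0.503 for Trim30d and 0.289 for Trim12a. The exceptions were Trim25 at 12.2 ± 2.90 and Trim26 at 7.99 ± 1.43 CPM per kb.

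The PRY-SPRY members linked to the interferon response held most of the genes that rose with both hairpins. Of 12 such genes tested, 8 rose and none fell with shRNF185.1, and 8 rose and none fell with shRNF185.3. Among all genes, 28.9% were called with shRNF185.1 (14.6% higher and 14.3% lower) and 27.3% with shRNF185.3 (14.2% higher and 13.1% lower) at an adjusted p under 0.05. The 12 genes had median log2 fold changes of 1.00 and 0.99, beside -0.02 over all genes tested in each comparison. The domain groups were chosen with earlier results of these data known, so these counts and medians are a description and no independent support. Over the 40 tested members, 12 rose and 3 fell with each hairpin. The median over all 40 members was 0.06 with each hairpin. Both comparisons use the same 6 control libraries, so they are not independent of each other.

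**Figure D2:**
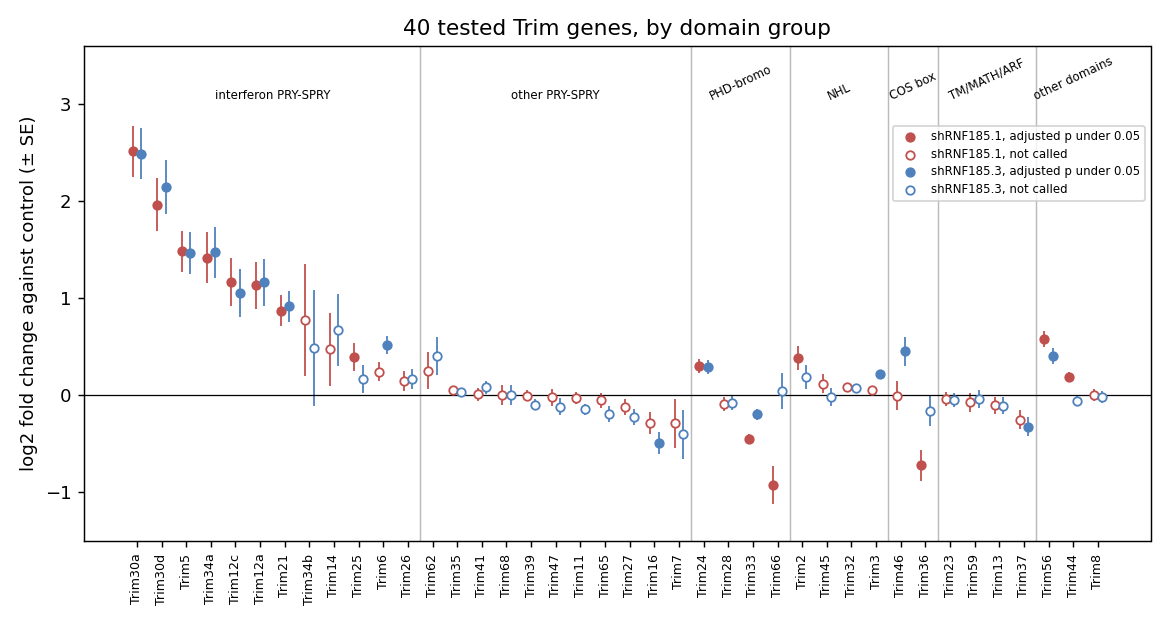
Log2 fold change against control of the 40 tested Trim genes, grouped by C-terminal domain, with bars of 1 SE; red is shRNF185.1, blue is shRNF185.3, and filled points have an edgeR adjusted p under 0.05. The interferon-linked PRY-SPRY genes at the left reach 2.52, while the other PRY-SPRY genes stay between -0.49 and 0.41. The groups were chosen with earlier results of these data known.

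Of the 42 genes, 13 lie on chromosome 7, and 8 of those lie in a cluster of 289 kb (GRCm38, chr7:104218793-104507849). In order these are Trim6, Trim34a, Trim5, Trim12a, Trim34b, Trim12c, Trim30a and Trim30d. Trim30b and Trim30c lie between Trim12c and Trim30a and had no CPM row, with summed counts of 13.02 and 14. RefSeq promoters (GRCm38.p6, 250 bases before to 50 bases after the start site) matched 33 of the 42 genes. They were searched on both strands for the core of the interferon-stimulated response element (GAAA, any 2 bases, then GAAA), to which IRF factors bind. It was found in 9 of the 33: Trim2, Trim5, Trim12a, Trim12c, Trim21, Trim26, Trim30a, Trim30d and Trim34a. The same letters occur in 3.44% of all 32851 promoters of that length and in promoters of 3.99% of genes. The stretches below show that core in capitals for the cluster genes with the highest fold changes and for Trim21, and, for comparison, the bases upstream of Trim34b and Trim6, which had no match. Each is printed 5′ to 3′ on the strand of its gene; for Trim34a, Trim12a and Trim21 the stretch starts at the start site, and for the others it ends just before it.
Trim30a (chr7:104465194-104465283, - strand): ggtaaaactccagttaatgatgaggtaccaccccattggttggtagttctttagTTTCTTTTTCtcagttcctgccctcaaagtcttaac
Trim30d (chr7:104507850-104507939, - strand): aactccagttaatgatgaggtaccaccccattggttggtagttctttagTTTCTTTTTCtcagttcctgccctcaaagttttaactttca
Trim5 (chr7:104288107-104288196, - strand): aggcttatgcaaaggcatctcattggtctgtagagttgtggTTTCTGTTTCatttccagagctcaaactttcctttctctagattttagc
Trim12c (chr7:104353350-104353439, - strand): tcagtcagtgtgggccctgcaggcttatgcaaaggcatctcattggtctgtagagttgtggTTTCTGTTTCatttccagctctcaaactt
Trim12a (chr7:104315466-104315495, - strand): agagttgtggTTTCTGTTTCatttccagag
Trim34a (chr7:104244457-104244486, + strand): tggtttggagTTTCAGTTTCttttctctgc
Trim21 (chr7:102565453-102565482, - strand): ctgcctctgagagGAAACTGAAAGTGAAAt
Trim34b (chr7:104329381-104329470, + strand): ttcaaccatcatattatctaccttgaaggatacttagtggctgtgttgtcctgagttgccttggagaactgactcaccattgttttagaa
Trim6 (chr7:104218705-104218794, + strand): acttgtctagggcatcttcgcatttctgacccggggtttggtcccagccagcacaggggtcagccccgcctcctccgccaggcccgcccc

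Some of the stretches show close copies. In a global alignment of the promoters, Trim30a and Trim30d were identical at 90.8% of aligned columns, Trim5 and Trim12c at 82.2%, Trim12a and Trim12c at 72.7%, and Trim5 and Trim12a at 67.1%. Pairs across these families lay between 43.9% and 52.8%. Trim34a and its copy Trim34b, at 48.8%, lay inside that range. Trim21, which lies outside the cluster on the same chromosome, holds overlapping matches on its own strand. Of the 9 genes with a match, 8 rose with shRNF185.1 and 7 with shRNF185.3, with median log2 fold changes of 1.17 and 1.16. Of 22 tested genes whose promoter had no match, 4 rose and 1 fell with each hairpin, beside the 28.9% and 27.3% of all genes called. Of the 9 genes with no promoter entry, 2 fell with shRNF185.1, and 1 rose and 2 fell with shRNF185.3. Trim26 had matches and was not called with either hairpin. Other motifs were in fewer members, close to their shares over all genes. The interferon-gamma activated site TTCNNNGAA was in 3 of the 33 (9.55% of all genes). The E box CACGTG was in 3 (8.09% of all genes). A match is a description of the letters and was not tested as a binding site.

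Trim30a, which encodes a macrophage-expressed inhibitor of Toll-like receptor signalling, changed most. Control libraries 1 to 6 held 2.39, 1.84, 4.01, 2.99, 4.05 and 1.51 CPM, those with shRNF185.1 held 24.4, 20.9, 10.5, 9.38, 15.1 and 15.1, and those with shRNF185.3 held 11.8, 12.4, 19.2, 17.1, 17.6 and 15.8. Every hairpin library lay above every control library. The log2 fold change was 2.52 with shRNF185.1 (SE 0.26, a 5.72-fold rise, edgeR adjusted p = 8.95e-07) and 2.49 with shRNF185.3 (SE 0.26, 5.62-fold, adjusted p = 1.07e-06).

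Its near copy Trim30d rose from 1.89 ± 0.718 CPM in control to 7.31 ± 2.66 in the shRNF185.1 group and 8.25 ± 2.12 in the shRNF185.3 group (SD, n = 6 each). The lowest, median and highest values were 0.753, 1.90 and 2.89 in control, 4.92, 6.79 and 12.0 in the shRNF185.1 group, and 4.68, 8.57 and 10.4 in the shRNF185.3 group, with no overlap with control. The log2 fold changes were 1.96 (SE 0.27, edgeR adjusted p = 2.76e-05) and 2.14 (SE 0.27, adjusted p = 1.1e-05). Of the 75-base windows of its transcripts, 5.40% also occur in another gene, and for Trim30a 4.98% do.

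Trim5, Trim12a and Trim12c are the mouse relatives of the primate gene whose protein blocks retroviral capsids. Trim5 was the lowest of these, at 0.302 ± 0.0915 CPM in control, 0.860 ± 0.163 in the shRNF185.1 group and 0.853 ± 0.163 in the shRNF185.3 group. Its highest control was 0.374 and its lowest hairpin value 0.618, so the groups did not overlap (log2 fold changes 1.48 and 1.47, SE 0.21 each; edgeR adjusted p = 3.49e-05 and 4.34e-05). Trim12a went from 1.67 ± 0.609 CPM to 3.69 ± 1.10 and 3.76 ± 0.744 (log2 fold changes 1.13 and 1.16, SE 0.24 each; adjusted p = 0.0015 and 0.00133). All 6 shRNF185.3 libraries and 5 of 6 shRNF185.1 libraries lay above the highest control. Trim12c went from 5.78 ± 2.47 CPM to 13.0 ± 3.38 and 12.0 ± 1.96 (log2 fold changes 1.17 and 1.06, SE 0.25 each; adjusted p = 0.00143 and 0.00349), and the highest control, 9.29, was exceeded by 5 of 6 libraries in each hairpin group.

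The batches differed for these genes. With shRNF185.1, the log2 ratio of the group means was 1.37 in batch 1, 0.08 in batch 2 and 2.24 in batch 3 for Trim12c, and 1.60, 0.11 and 1.74 for Trim12a. With shRNF185.3 it was 0.84, 0.47 and 2.12 for Trim12c and 1.01, 0.68 and 1.93 for Trim12a. Without batch 1 the shRNF185.1 calls of Trim12a and Trim12c were lost (adjusted p = 0.0772 and 0.0608), and without batch 3 their shRNF185.3 calls were lost (0.0565 and 0.0619). Transcript sequence is also shared: 20.6% of the windows of Trim5, 17.3% of those of Trim12c and 5.58% of those of Trim12a occur in any other gene. The largest share with a single gene was 12.4% for Trim5 (with Trim12c), 12.8% for Trim12c and 2.98% for Trim12a (both with Trim5). How reads from such windows were assigned is not given in the sources used here.

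Trim34a, another antiviral relative in the cluster, went from 1.39 ± 0.506 CPM to 3.72 ± 1.16 and 3.85 ± 0.973, with no overlap with control (highest control 1.98, lowest hairpin value 2.02). Its log2 fold changes were 1.42 (SE 0.26, edgeR adjusted p = 0.000475) and 1.47 (SE 0.26, adjusted p = 0.00036). The shRNF185.1 ratio was again small in batch 2, at 0.29 on the log2 scale, against 1.81 in batch 1 and 2.15 in batch 3. The copy Trim34b shares 42.5% of its windows with Trim34a, and Trim34a shares 29.5% of its own on the same strand, all with Trim34b, so their split is uncertain. Trim34b was listed at 0 in shRNF185.1 replicate 4 and in shRNF185.3 replicate 1, where 3 counts correspond to 0.115 and 0.136 CPM, and its fold changes of 0.78 (SE 0.58) and 0.49 (SE 0.60) were not called.

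Trim6, at the edge of the cluster, makes ubiquitin chains that activate a kinase of the interferon pathway. It had the smallest change of the called cluster genes. Its levels were 1.94 ± 0.241 CPM in control, 2.3 ± 0.166 in the shRNF185.1 group and 2.78 ± 0.186 in the shRNF185.3 group. With shRNF185.3 all 6 libraries lay above the highest control of 2.34 (log2 fold change 0.52, SE 0.09, edgeR adjusted p = 0.000402). With shRNF185.1 only 2 did, and the change of 0.25 (SE 0.10) was not called (adjusted p = 0.0652). The shRNF185.3 libraries also lay wholly above those of shRNF185.1, without a call (0.28, SE 0.09, adjusted p = 0.0577).

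Other genes in and beside the cluster were few. GENCODE M21 places 18 genes inside it, of which 9 were tested, 8 of its Trim genes and the processed pseudogene Gm16464. Gm16464 rose by 0.80 and 1.04 (edgeR adjusted p = 0.00715 and 0.000912). It lies within Trim30d on the same strand, where no exon of Trim30d overlaps it. Whether unspliced reads of Trim30d were counted in it was not tested. In the 500 kb on either side, 5 of 83 genes were tested, and many of the others are olfactory receptor genes with no counts. Usp17la, a deubiquitinase gene, rose by 1.62 and 1.44 (adjusted p = 2.55e-05 and 9.22e-05). Its relative Usp17lb rose by 0.92 with shRNF185.1 (adjusted p = 0.0333) and had 0.73 with shRNF185.3 (adjusted p = 0.0914), and the pseudogene Gm5900 rose by 1.32 with shRNF185.1 (adjusted p = 0.00985) and had 0.53 with shRNF185.3 (adjusted p = 0.338). Usp17le and Dnajc19-ps were not called.

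**Figure D3:**
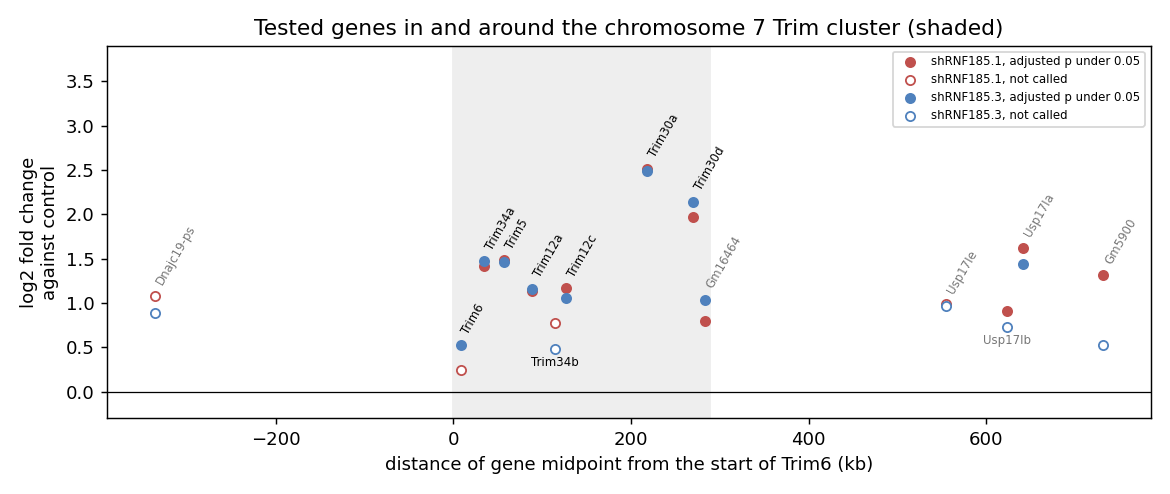
Log2 fold change against control of the tested genes in the chromosome 7 cluster (shaded, 289 kb) and in 500 kb on either side, by distance of the gene midpoint from the start of Trim6 in kb; red is shRNF185.1, blue is shRNF185.3, and filled points have an edgeR adjusted p under 0.05. Trim30a is highest at 2.52 and 2.49, and Trim34b is the cluster member called with neither hairpin.

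**Figure D4:**
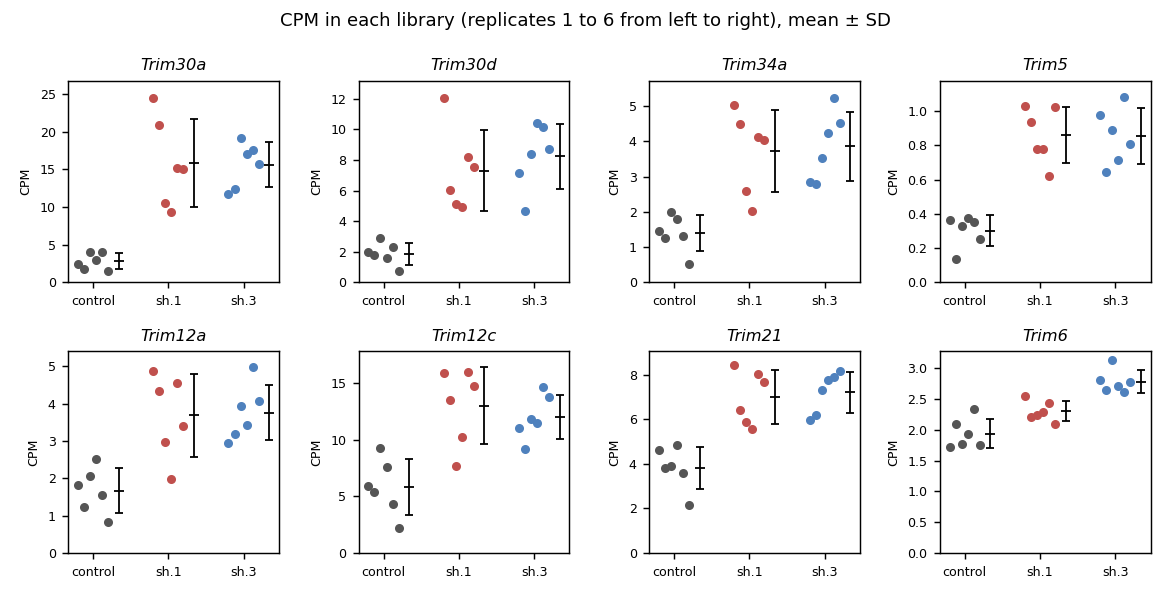
CPM in each library for 8 genes called with at least 1 hairpin; points run from replicate 1 to 6 from left to right, the bar beside them is the mean and SD, and sh.1 and sh.3 stand for shRNF185.1 and shRNF185.3. Trim30a, Trim30d, Trim34a, Trim5 and Trim21 show no overlap between control and either hairpin group.

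Outside the cluster, Trim21 encodes the cytosolic receptor for antibody-coated virus. It held 2.13, 3.84 and 4.86 CPM (lowest, median, highest) in control, 5.54, 7.06 and 8.41 in the shRNF185.1 group, and 5.96, 7.52 and 8.17 in the shRNF185.3 group. The groups did not overlap, and the log2 fold changes were 0.87 (SE 0.16, edgeR adjusted p = 0.000409) and 0.92 (SE 0.16, adjusted p = 0.000266).

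The RNA sensor RIG-I is ubiquitinated by the product of Trim25. Its levels were 70.0 ± 16.7 CPM in control, 92.0 ± 7.91 in the shRNF185.1 group and 78.5 ± 15.5 in the shRNF185.3 group, and both hairpin groups overlapped control. The call with shRNF185.1 was marginal (0.39, SE 0.14, edgeR adjusted p = 0.0451) and the value with shRNF185.3 was not called (0.17, SE 0.14, adjusted p = 0.412). It was lost under 21 of 31 alternative settings, including the replicate block (adjusted p = 0.0803) and any single library left out except control replicates 1 and 3 and shRNF185.3 replicates 3 and 5. In batches 1, 2 and 3 the shRNF185.1 ratios were 0.28, 0.06 and 0.93 and the shRNF185.3 ratios -0.12, -0.28 and 0.93 on the log2 scale, and batch 3 had the largest ratio with each hairpin.

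Trim14, which encodes an adaptor of mitochondrial antiviral signalling, and Trim26, a regulator of IRF signalling, were not called. Trim14 had log2 differences of 0.48 (SE 0.38) and 0.67 (SE 0.37), with 2.39 and 2.81 in batch 3. Its exons overlap those of opposite-strand genes, Nans, Gm16731 and Gm22247, over 38.0% of their length, summed over these genes. Trim26 had 0.15 and 0.17 (SE 0.10 each), with 0.58 and 0.66 in batch 3. In control replicate 6, which is in batch 3, 10 of these 12 genes had their lowest control value. Without that library the median of the 12 was 0.87 with shRNF185.1 and 0.84 with shRNF185.3, and 7 and 8 rose. Without batch 3 the medians were 0.68 and 0.65, and 7 and 6 rose. Without batch 1 they were 0.89 and 1.13, and 5 and 8 rose. Over all genes, the 4141 and 3906 calls became 2207 and 2120 without batch 1, and 2926 and 2501 without batch 3.

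The wider interferon response moved in the same libraries. Of 18 interferon response genes, 15 rose with shRNF185.1 and 14 with shRNF185.3, and none fell, with median log2 fold changes of 1.94 and 1.77. Among all genes, 14.6% and 14.2% rose. This list was chosen with earlier results of these data known. Ifit1 rose by 2.50 and 1.83, and Psmb8, a subunit of the immunoproteasome, by 2.66 and 2.87. As CPM of the library total, the summed level of the 18 genes ranged from 78.6 to 245 in control, with the lowest in replicate 6, from 369 to 572 with shRNF185.1, and from 296 to 1227 with shRNF185.3, where replicate 5 was highest. Bst2 alone reached 681 CPM in a library of that group. The part of this list in the Trim changes was not tested. Of 13 genes that sense foreign RNA, 7 rose with shRNF185.1, and 3 rose and 2 fell with shRNF185.3. The shares of all genes called were 28.9% and 27.3%. Ddx58, which encodes RIG-I, rose by 0.82 and 0.75, Ifih1 by 1.26 and 1.07, and Dhx58 by 1.68 and 1.84, while Mavs was not called at 0.01 and -0.06. Pml, a TRIM family gene with another symbol that is also made in response to interferon, rose by 0.61 (edgeR adjusted p = 0.000125) and 0.34 (adjusted p = 0.0158). Its relatives Mid1 and Mid2 bind microtubules; Mid1 was not called, and Mid2 fell by 0.60 with shRNF185.3.

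No call was made with shRNF185.1 among the 11 other PRY-SPRY genes tested, and with shRNF185.3 a single one fell. Of all genes, 28.9% and 27.3% were called. The medians of the 11 genes were -0.02 and -0.12. The gene that fell was Trim16, which encodes a stress-response protein without a RING domain. It went from 23.6 ± 4.01 CPM to 16.8 ± 2.13 with shRNF185.3 (fell by 0.49 on the log2 scale, SE 0.12, edgeR adjusted p = 0.00361), and 5 of 6 libraries lay below the lowest control. With shRNF185.1 it was at 19.3 ± 2.77 (-0.29, SE 0.11, adjusted p = 0.0687). Without batch 3 the call was lost (-0.26, adjusted p = 0.143). Trim35 had 147 ± 5.55 CPM in control, 153 ± 2.85 in the shRNF185.1 group and 151 ± 3.56 in the shRNF185.3 group, and log2 differences of 0.06 and 0.04 (SE 0.03 each; not called). Trim47, with 62.3 ± 7.62, 61.6 ± 7.65 and 57.3 ± 5.35 CPM, was not called either (-0.02 and -0.12, SE 0.09 each).

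The PHD-bromodomain genes did not move together. Trim28 had 467 ± 41.3 CPM in control, 438 ± 46.5 in the shRNF185.1 group and 443 ± 32.1 in the shRNF185.3 group, and its differences of -0.09 and -0.07 (SE 0.07 each) were not called; the 95% intervals ran from -0.23 to 0.05 and from -0.22 to 0.07. Trim24, a coactivator of nuclear receptors, went from 47.8 ± 3.46 CPM to 58.9 ± 7.59 and 58.4 ± 3.50 (0.30 and 0.29 on the log2 scale, SE 0.07 each; edgeR adjusted p = 0.00444 and 0.00621). With shRNF185.1, 4 libraries lay above the highest control, and with shRNF185.3, 5 did. The shRNF185.1 call was lost without batch 1 (adjusted p = 0.0747) and without batch 3 (0.102).

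Trim33, whose product binds SMAD proteins in transforming growth factor signalling, was lower with both hairpins. Control libraries held 83.0 to 103 CPM with a median of 91.4, those with shRNF185.1 held 62.9 to 70.4 with a median of 66.7, and those with shRNF185.3 held 73.6 to 87.3 with a median of 78.6. With shRNF185.1 no library overlapped the controls, and it fell by 0.45 on the log2 scale (SE 0.05, edgeR adjusted p = 5.71e-06). With shRNF185.3 it fell by 0.20 (SE 0.05, adjusted p = 0.0112), 5 libraries lay below the lowest control, and the call was lost without batch 1 (adjusted p = 0.112) and without batch 3 (0.107). All 6 shRNF185.3 libraries lay above the highest shRNF185.1 library (0.25, SE 0.05, adjusted p = 0.00334).

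Trim66, a related corepressor known from testis, fell with shRNF185.1 and was not called with shRNF185.3. Control libraries held 1.06, 2.02, 1.53, 1.75, 1.10 and 1.04 CPM, shRNF185.1 libraries 0.799, 0.717, 0.497, 0.853, 0.618 and 1.02, and shRNF185.3 libraries 1.25, 1.43, 1.27, 1.43, 1.58 and 1.81. The shRNF185.1 libraries lay below all others. It fell by 0.92 on the log2 scale against control (SE 0.20, edgeR adjusted p = 0.00164), had a difference of 0.05 with shRNF185.3 (SE 0.19, adjusted p = 0.88), and differed between the hairpins by 0.97 (SE 0.20, adjusted p = 0.00235).

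Genes of the pathways these proteins work in were counted in the same way. Among 14 corepressor partners of Trim28, 2 rose and 2 fell with shRNF185.1, and 3 rose and 1 fell with shRNF185.3, with medians of -0.01 and 0.02; the 4 called of 14 in each comparison are close to the 28.9% and 27.3% of all genes. The heterochromatin protein gene Cbx1 rose by 0.37 and 0.27, and the zinc-finger gene Zfp57, whose product works through Trim28 at imprinted loci, fell by 0.46 and 0.19. The chromatin remodeller gene Chd3 fell by 0.24 with shRNF185.1 and rose by 0.44 with shRNF185.3. Among 8 SMAD pathway genes, 3 rose and 4 fell with shRNF185.1, and 3 fell with shRNF185.3. Of all genes, 14.6% rose and 14.3% fell with shRNF185.1, and 13.1% fell with shRNF185.3. Smad2 fell by 0.16 with each hairpin, and the receptor gene Tgfbr1 fell by 0.51 with shRNF185.1 and had -0.06 with shRNF185.3.

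Among the genes with NHL repeats or a filamin domain, 1 of 4 tested rose with each hairpin, close to the 28.9% and 27.3% of all genes called. Trim2, a ligase of neurofilament light chain, went from 57.2 ± 9.09 CPM to 74.5 ± 13.3 with shRNF185.1 (0.38, SE 0.12, edgeR adjusted p = 0.0259) and 65.1 ± 9.50 with shRNF185.3 (0.19, adjusted p = 0.274), with overlap in both, and it was not called between the hairpins (-0.19, adjusted p = 0.378). The call was lost without batch 1 or batch 3, and without control replicate 2, 4 or 6 or shRNF185.1 replicate 1 or 5, with adjusted p from 0.0505 to 0.226. Trim3, a relative of a fly growth suppressor, was at 44.6 to 55.2 CPM in control, 50.6 to 53.4 with shRNF185.1 and 55.4 to 59.4 with shRNF185.3. It rose by 0.22 with shRNF185.3 (SE 0.05, adjusted p = 0.00134), with no overlap with either other group, and had 0.06 with shRNF185.1 (adjusted p = 0.382). Without batch 1 the shRNF185.3 call was lost (adjusted p = 0.0688). Trim32 and Trim45 were not called.

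The products of the COS box genes bind microtubules, and 2 of these genes were tested. Trim36 fell by 0.72 with shRNF185.1 (SE 0.16, edgeR adjusted p = 0.00249) from 1.11 ± 0.199 to 0.668 ± 0.142 CPM, and was at 0.992 ± 0.150 with shRNF185.3 (-0.16, adjusted p = 0.484). Without batch 3 the shRNF185.1 call was lost (-0.61, adjusted p = 0.0767). Trim46, known from the axon initial segment, had 12.2 ± 2.97 CPM in control and 12.1 ± 2.05 with shRNF185.1, and rose to 16.6 ± 2.07 with shRNF185.3 (0.45, SE 0.15, adjusted p = 0.0287). In 4 of the 6 shRNF185.3 libraries it was above the highest control. This call was lost with the replicate block (adjusted p = 0.0656), without batch 1 or batch 3 (0.0718 and 0.244), and without control replicate 6 (0.0634) or shRNF185.3 replicate 5 (0.0759) or 6 (0.0506).

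Of the 4 members with a transmembrane, MATH or ARF domain, none was called with shRNF185.1 and 1 fell with shRNF185.3. The shares of all genes called were 28.9% and 27.3%. Trim37, a MATH domain ligase of centrosomes and peroxisomes, fell by 0.32 with shRNF185.3 (SE 0.10, edgeR adjusted p = 0.0177), from 74.9 ± 10.3 to 59.7 ± 5.73 CPM, and was at 63.1 ± 8.46 with shRNF185.1 (-0.25, adjusted p = 0.0607); without batch 3 the call was lost (-0.14, adjusted p = 0.352). Trim59 had 131 ± 21.8, 124 ± 11.6 and 127 ± 13.5 CPM and was not called (-0.07 and -0.04, SE 0.09 each). Trim13, an endoplasmic reticulum member, and Trim23, which carries an ARF domain, were not called. Of the 3 tested members with no C-terminal domain named here, 2 rose with shRNF185.1 and 1 with shRNF185.3. Among all genes, 14.6% and 14.2% rose. Trim8 had 131 ± 12.7, 131 ± 7.78 and 129 ± 8.27 CPM, with log2 differences of 0.003 and -0.02 (SE 0.06 each; not called).

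Trim56, which encodes a ligase of cytosolic nucleic acid sensing with no PRY-SPRY domain, rose with both hairpins. It held 41.8, 48.2 and 58.0 CPM (lowest, median, highest) in control, 62.0, 75.3 and 80.8 in the shRNF185.1 group, and 57.8, 64.1 and 78.1 in the shRNF185.3 group. No shRNF185.1 library and 1 shRNF185.3 library fell in the control range. The log2 fold changes were 0.58 (SE 0.08, edgeR adjusted p = 3.09e-05) and 0.41 (SE 0.08, adjusted p = 0.00101). No ISRE core was found in its promoter.

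Trim44, a member without a RING domain, rose with shRNF185.1 from 124 ± 8.96 to 141 ± 5.40 CPM (0.19, SE 0.05, edgeR adjusted p = 0.00654) and was at 119 ± 6.06 with shRNF185.3 (-0.06, adjusted p = 0.429). The shRNF185.1 call was lost without batch 1 (adjusted p = 0.0842) and without batch 2 (0.0968).

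Counted over the family, 6 members with shRNF185.1 had all 6 libraries above every control (Trim5, Trim21, Trim30a, Trim30d, Trim34a and Trim56), beside 7.02% of all genes, and 2 had all 6 below (Trim33 and Trim66), beside 5.77%. With shRNF185.3, 8 members lay wholly above control (Trim3, Trim5, Trim6, Trim12a, Trim21, Trim30a, Trim30d and Trim34a), beside 7.60% of all genes, and none wholly below, beside 5.70%.

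Compared with each other, the hairpins differed in 6 of the 40 genes: 5 were higher and 1 was lower with shRNF185.3, where 14.7% of all genes were called (7.72% higher and 6.94% lower). None of the 12 interferon-linked genes was called in that comparison; their differences ran from -0.29 to 0.28. The 6 were Trim66, Trim33 and Trim3, described above, and Trim36, Trim46 and Trim44. Trim66, Trim33, Trim3 and the uncalled Trim6 lay wholly above shRNF185.1 (4.45% of all genes did), and Trim44 lay wholly below (3.79% did).

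**Figure D5:**
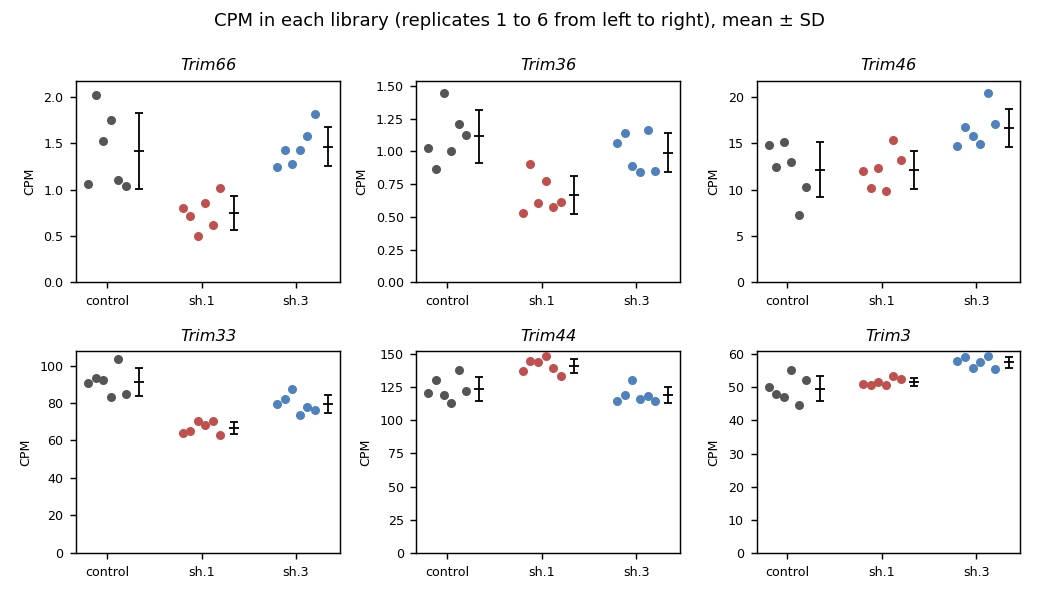
CPM in each library for the 6 genes that differed between the hairpins; points run from replicate 1 to 6 from left to right, the bar is the mean and SD, and sh.1 and sh.3 stand for shRNF185.1 and shRNF185.3. Trim66 lies between 0.497 and 1.02 with shRNF185.1 and between 1.25 and 1.81 with shRNF185.3, and the 2 groups of Trim36 and of Trim46 overlap.

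Trim44 was lower with shRNF185.3 by 0.24 on the log2 scale (SE 0.05, edgeR adjusted p = 0.00184). Trim3 differed by 0.16 (SE 0.05, adjusted p = 0.02), and its call was lost without shRNF185.1 replicate 4 (0.15, adjusted p = 0.0568), without batch 2 (adjusted p = 0.102) and without the count filter (0.109). Without batch 1 the calls of Trim44, Trim33 and Trim3 were all lost (adjusted p = 0.087, 0.156 and 0.299), and Trim66 kept its call under all 31 alternatives. Trim36 (0.56, SE 0.17, adjusted p = 0.029) lost its call under 15 of them, among them DESeq2 (0.0757), the replicate block (0.0671), and leaving out shRNF185.1 replicate 1, 3, 5 or 6 or shRNF185.3 replicate 1, 2 or 5. Trim46 (0.46, SE 0.15, adjusted p = 0.0449) lost it under 19, among them library-size scaling (0.058), the replicate block (0.0899), and leaving out control replicate 2 or 4, any shRNF185.1 replicate except 5, or any shRNF185.3 replicate.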

How the data were processed

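Polyadenylated RNA was sequenced as single-end reads of 75 bases from strand-specific libraries, per the labels' protocols. The submitters' processing notes name cutadapt 2.3, STAR 2.7.0d, RSEM 1.3.1 and the mm10 build; annotation, strand setting and the design given to the batch adjustment are not given in the sources used here. The authors deposited estimated counts for 47643 genes, adjusted with ComBat-Seq per the labels, of which 0.466% of values are not whole; they were rounded. The design had assumed counts, and its test was kept. The authors' deposited CPM are a library-scaled signal whose sums run from 969986 to 1026394, for 15386 genes whose counts add up to 90 or more. A batch adjustment can narrow the spread between libraries and so lower p-values.

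Genes kept by filterByExpr (minimum count 10; 14309 genes) were scaled by TMM and fitted in R 4.3.3 with edgeR 4.0.16, without a covariate, over all 18 libraries. The quasi-likelihood F test gave p-values, adjusted by the Benjamini-Hochberg method over all genes tested; a gene was called, or said to rise or fall, at an adjusted p under 0.05. The procedure was tested on simulated data. Log2 ratios within a batch are of mean CPM of 2 libraries a group, with no test. Alternatives were library size or RLE scaling, no filter beyond 1 count, DESeq2 1.42.0, limma 3.58.1 on log2 CPM plus 1, a batch covariate, a replicate block, offsets for GC content and length, only the groups compared, a further log2 threshold of 0.5, and leaving out each batch or library. Libraries of a group differed beyond sampling noise in all 45 pairs (chi-square per gene 7.64 to 84.4). A depth of 22027395 to 43379662 counts puts 3 counts at 0.0692 to 0.136 CPM, which covers counting error only.

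Replicate numbers are shared by the groups, and the labels tie them to batches. Deviations from the group means of the 18 same-numbered pairs correlated with a mean r of -0.0144 (-0.628 to 0.705, with 4 over 0.1; 9671 genes), and the value with the block is printed where it changes a call. Symbols matched 99.1% of identifiers, and positions are from GENCODE M21 on GRCm38, matched by identifier. Full values are given for members called with both hairpins or between hairpins and for the 5 with the highest control level per kilobase. The members, domain groups and gene lists were chosen with earlier results of these data known. Some marker and pathway genes are not reported here.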

Additional observations from a re-analysis of the deposited data

Results flagged for a closer look

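In 5 of 126 groups of 6 libraries, the end value stood apart from the rest by Dixon's test at 95%; chance gives about 6.3. Trim6 reached 3.13 CPM in shRNF185.3 replicate 3, and the nearest other library had 2.80. Trim34b was at 0.0314 CPM in control replicate 6, and the nearest other library had 0.249. Trim39 was at 26.7 CPM in shRNF185.1 replicate 6, and the nearest other library had 29.6. Trim44 reached 130.7 CPM in shRNF185.3 replicate 3, and the nearest other library had 118.9. Trim47 reached 67.6 CPM in shRNF185.3 replicate 1, and the nearest other library had 58.7.

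In 6 of 40 genes the effects of the hairpins differed by the test of shRNF185.3 against shRNF185.1, close to the 14.7% of all genes called in it. The log2 differences were 0.97 for Trim66, 0.56 for Trim36, 0.46 for Trim46, 0.25 for Trim33, 0.16 for Trim3 and -0.24 for Trim44. The call was lost under 15 of 31 alternatives for Trim36 and under 19 for Trim46.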

How the results depend on the processing

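Of 36 called pairs of a gene and a comparison, 17 kept their call under every alternative run for them and none changed sign. Over all 120 pairs, 3593 of 3718 alternative values stayed on their side of the threshold, 88 lost a call and 37 gained one; 204 of 2602 values of uncalled pairs changed sign while staying uncalled. Counts of Trim genes moved as follows. In some of these settings fewer libraries or other genes entered the fit, and the causes were not tested. The 12 that rose with shRNF185.1 became 6 without batch 1, where the calls over all genes went from 4141 to 2207. The 3 that fell with it became 6 without batch 2 and ranged from 3 to 5 when a single library was left out, with 5 without control replicate 4 or shRNF185.1 replicate 3. The 3 that fell with shRNF185.3 became 6 with the GC and length offset, 6 with the replicate block and that offset, 1 without batch 3 and 0 with the fold threshold. Between the hairpins, the 5 higher became 2 without the count filter, 3 with the batch covariate, 3 with the replicate block, 1 without batch 1, 2 without batch 2 and 2 with the fold threshold. Leaving out a single library gave 3 to 6, with 3 without shRNF185.1 replicate 1, 3, 4 or 6 or shRNF185.3 replicate 1, 2 or 5. The 1 lower became 2 with the GC and length offset, 0 without batch 1, 3 without batch 3 and 0 with the fold threshold. Over all genes, the 2098 calls between the hairpins became 753 without batch 1, 1208 without batch 2 and 1794 without batch 3. Those with shRNF185.1 went from 4141 to 5119 without batch 2, and those with shRNF185.3 from 3906 to 2501 without batch 3. Under the replicate block 11 were higher and 3 lower for shRNF185.1, 11 higher and 4 lower for shRNF185.3; besides the calls it ended, it added Trim27 as lower with shRNF185.3 (-0.23, adjusted p = 0.0346). Depth limits Trim34b, Trim15 and Trim71 most.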
